A study of Homo sapiens with 18 samples.

Results

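The 10 genes described here build or regulate the cytoskeleton of young neurons, or bind their RNA. They were followed through neural differentiation of H9, a human embryonic stem (ES) cell line. They are STMN2, DCX, MAP2, MAPT, INA, NEFL, NEFM, GAP43, ELAVL3 and ELAVL4, taken by name, and they make up 10 of the 19775 genes that the arrays measured by a probe set naming that gene alone. A probe set is a group of short array probes read as 1 signal, and 28 of the 54675 probe sets on the array name a member. For each gene the probe set with the highest mean over all arrays was used, after those ending in _x_at (probes that can also bind other transcripts) were left out where another existed, and the other 18 are shown beside it.

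The series holds 18 Affymetrix arrays of total RNA in 6 groups of 3 pools: undifferentiated H9 cells, embryoid bodies (floating aggregates) at day 6, and day 10 and day 17 neuroepithelium, each either untreated or given basic fibroblast growth factor (bFGF, FGF2) from day 6 on. The labels give the dose as 20 ug/ml at day 10 and 20 ng/ml at day 17, so the doses of the bFGF groups, as written, differ between the days. All groups come from 1 cell line, and day 6 pools 1 and 2 are labelled with the same cell passages. Day 6 pool 3 shares 1 passage with them, and ES pool 3 shares 1 with each of the other ES pools. ES pools 1 and 3 carry the same labelled passages as day 6 pools 1 and 3 respectively, while those of ES pool 2 and day 6 pool 2 differ throughout. Every array is of a whole culture, so that fewer cells of a type and less RNA per cell cannot be told apart, and since the labels do not say whether the neuroepithelial pools are separate cultures, the p-values cover the spread between these arrays alone, which may be technical.

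Neurons grow axons and dendrites by extending and stabilising microtubules. DCX and the proteins MAP2 and MAPT (tau) bind and stabilise microtubules, while STMN2 belongs to the stathmins, which bind free tubulin and make microtubules more dynamic. INA, NEFL and NEFM are subunits of neuronal intermediate filaments, which fill maturing axons, and GAP43 is a membrane-attached protein of growth cones. ELAVL3 and ELAVL4, the HuC and HuD proteins, are RNA-binding proteins of neurons that stabilise messenger RNAs, GAP43 messenger RNA among their known targets.

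Signals are linear intensities whose 2% trimmed mean was 150.016 to 150.026 on every array. In the neuroepithelium, the pool 2 array of each of the 4 groups showed raised low signals, with medians of 48.7 to 50.8 against 25.2 to 32.7 on the other 14 arrays. The ratio of 3' to 5' ACTB probe sets, a sign of RNA integrity, was 2.27 to 2.64 in pool 2 of all 6 groups and 1.17 to 1.75 on the other arrays. Changes are differences of log2(signal + 16), which understates the changes of low signals, and are given as estimate ± standard error. A change is called where its Benjamini-Hochberg adjusted p, from limma over 19775 genes, is under 0.05. The number of arrays limits the precision.

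The promoters of INA and GAP43 are shown because these genes have 1 listed start site each and followed different courses below, INA near its ES level until day 10 and GAP43 falling before it rose. The sequences are the 250 bases before the start in RefSeq on GRCh38.p14, INA at chr10:103276888-103277137 and GAP43 at chr3:115623260-115623509, both on the plus strand. Capitals mark matches on either strand to CAGCTG and CAGATG, E-box letters bound by proneural factors, and to GGACAGC and TTCAGCACC, pieces of the element bound by the repressor REST.
INA: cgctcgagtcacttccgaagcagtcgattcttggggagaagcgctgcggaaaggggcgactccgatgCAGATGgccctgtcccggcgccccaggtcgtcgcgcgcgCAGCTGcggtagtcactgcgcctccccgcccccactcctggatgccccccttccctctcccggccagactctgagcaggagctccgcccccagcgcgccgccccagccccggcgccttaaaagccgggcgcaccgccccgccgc
GAP43: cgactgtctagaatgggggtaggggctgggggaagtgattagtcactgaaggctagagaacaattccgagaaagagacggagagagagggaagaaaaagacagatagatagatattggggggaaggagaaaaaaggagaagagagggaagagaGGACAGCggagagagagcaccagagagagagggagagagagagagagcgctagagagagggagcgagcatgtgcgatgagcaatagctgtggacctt

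The INA promoter holds CAGATG 183 bases and CAGCTG 144 bases before the start, counted from the 5' end of the match, and 72.8% of its bases are G or C. The GAP43 promoter holds GGACAGC 97 bases before the start within a purine-rich stretch, and 51.6% of its bases are G or C. Among all 35116 listed promoters the median share of G and C was 58%, 14% held CAGCTG, 12.2% CAGATG, 4.76% GGACAGC and 0.288% TTCAGCACC. STMN2, MAPT, NEFL, NEFM and ELAVL3 have no listed promoter and were not searched. Of the remaining members DCX has 3 listed promoters, of which 0 held any of these letters, MAP2 has 3, of which 1 did, and ELAVL4 has 7, of which 3 did. These matches describe the letters and do not locate a binding site.

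The members differed in the step at which they rose most, a difference between genes that was not tested. Between ES cells and untreated day 17 neuroepithelium, 9 of the 10 rose past the test (11.7% of all genes) and GAP43 did not. On the probe sets used, MAP2 had its largest step between ES cells and day 6, MAPT between day 6 and day 10, and the other 8 between day 10 and day 17. The second MAP2 probe set had its largest step between day 6 and day 10, and all 5 other MAPT probe sets had theirs between day 10 and day 17. The steps given for MAP2 and MAPT thus each rest on 1 probe set. So do those of INA, which has no other, and NEFM, whose second never exceeded a signal of 5.14. For ELAVL3 and ELAVL4, 1 other probe set each had its largest step before day 10. Of the 10 members, 2 rose by day 6 (DCX and MAP2), where 2.19% of all genes rose. From day 6 to day 10, 4 rose where 3.73% of all genes rose, and 1 fell where 2.64% fell. From day 10 to day 17, 7 rose where 1.45% of all genes rose. With the pool number as a fixed block, 3 members and 1454 genes were called by day 6, against 762 genes without it. With only the 2 compared groups fitted, 2 members (DCX and MAP2) and 647 genes were called from day 6 to day 10, against 1259 genes.

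The median change of the 10 members was 0.07 at the step to day 6, where the median of all genes was -0.00028. It was 0.92 at the step to day 10 (all genes 0.09) and 2.06 at the step to day 17 (all genes -0.01). Over the whole course it was 2.64 (all genes 0.09). Consecutive steps share arrays, since the day 6 and the day 10 pools each end 1 step and begin the next.

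**Figure D1:**
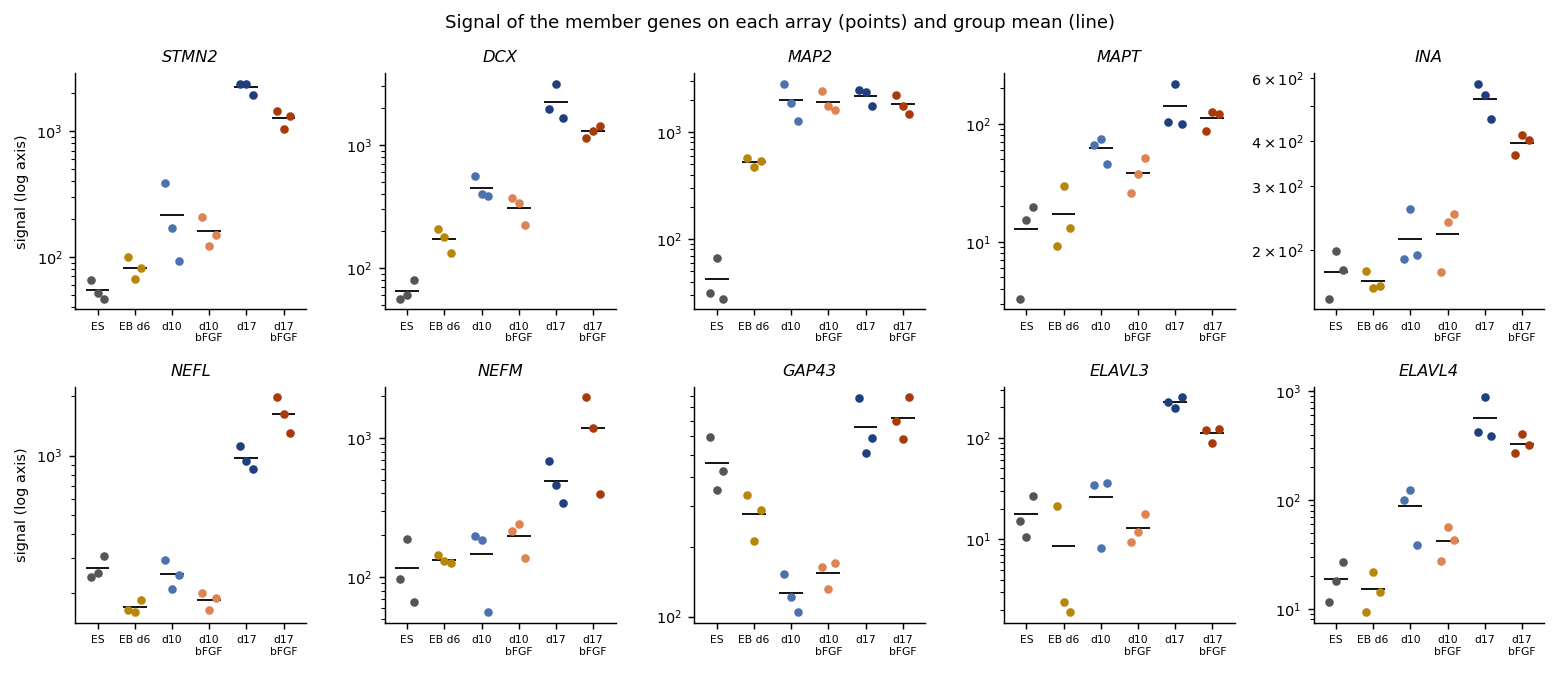
Signal of each member's probe set (log axis, a separate axis for each gene) on the 18 arrays, in groups of 3 pools drawn from left to right as pools 1 to 3, with the group mean as a line. MAP2 is already at 1985 at day 10 while STMN2 reaches 2225 and ELAVL3 225 at day 17, and GAP43 falls to 126 at day 10 before it rises to 659.

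Among the microtubule genes, the MAP2 probe set used made its largest rise before day 6. Its signals on ES pools 1 to 3 were 31.6, 66.6 and 27.7, and on the day 6 pools 577, 475 and 532. The 6 arrays separated widely, and the change was 3.29 ± 0.30 (adjusted p = 4.08e-06), a 9.76-fold rise of signal + 16. At day 10 the pools read 2822, 1865 and 1267, all above day 6 (1.81 ± 0.30, adjusted p = 0.000997). At day 17 they read 2492, 2348 and 1757, inside the range of day 10. The change of the last step was 0.21 ± 0.30 (adjusted p = 0.948), with a 95% interval of -0.43 to 0.84. Under this interval a further rise of MAP2 after day 10 could not be told from none.

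STMN2 differed from MAP2 in that its largest step came last, and that step was the largest of any member. Its signals were 65.0, 51.7 and 46.6 on the ES pools and 99.4, 66.4 and 80.7 at day 6. At day 10 they were 385, 170 and 92.6, where pool 1 stood well above pool 3 and pool 3 lay inside the day 6 range. Neither early step was called: the first was 0.47 ± 0.35 (adjusted p = 0.701) and the second 1.05 ± 0.35 (adjusted p = 0.0928). The second was called when day 10 pool 3 was left out (1.49, adjusted p = 0.00849), and without day 10 pool 1 it was 0.55 (adjusted p = 0.299).

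At day 17 the STMN2 pools read 2368, 2360 and 1947, and the lowest of them was above every array of the other groups. This step was 3.47 ± 0.35 (adjusted p = 3.75e-05), 11.1-fold on signal + 16, and over the whole course STMN2 rose by 4.99 ± 0.35 (adjusted p = 2.90e-08). The order of its 6 groups was ES cells, day 6, day 10 with bFGF, day 10, day 17 with bFGF and day 17, in which day 10 and day 10 with bFGF were the neighbours with overlapping arrays.

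DCX (doublecortin), a marker of newly formed neurons, rose at every step. Its signals were 56.7, 61.0 and 79.4 on the ES pools and 206, 178 and 132 at day 6 (1.19 ± 0.26, adjusted p = 0.0145). They were 558, 402 and 388 at day 10 (1.31 ± 0.26, adjusted p = 0.00520) and 1961, 3132 and 1645 at day 17 (2.25 ± 0.26, adjusted p = 0.000207). No array of a group overlapped with those of the group next to it in order, a pattern that among the members DCX alone showed across all 6 groups. The call at day 6 was lost without ES pool 1 (adjusted p = 0.0699), ES pool 2 (0.0527), day 6 pool 1 (0.0844) or day 6 pool 2 (0.0588), with changes of 1.06 to 1.16.

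MAPT had low signals throughout. It read 3.31, 15.3 and 19.7 on the ES pools, 9.15, 30.0 and 13.1 at day 6, and 66.6, 74.8 and 45.9 at day 10, where all 3 arrays were above all day 6 arrays. This step was 1.26 ± 0.32 (adjusted p = 0.0250). At day 17 the pools read 104, 218 and 99.6, again above all of day 10, with a change of 0.94 ± 0.32 that was not called (adjusted p = 0.223).

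Over the whole course MAPT rose by 2.41 ± 0.32 on the probe set used (adjusted p = 3.79e-05). In a fit over all 54675 probe sets, MAPT gave 2.08 and 1.25 (called) and 0.77, 0.61 and 0.35 (not called) on its other probe sets. Its day 10 call did not hold without day 6 pool 1 (adjusted p = 0.122) or pool 3 (0.100), or without day 10 pool 1 (0.0766) or pool 2 (0.0974). It was also lost after quantile scaling (adjusted p = 0.0958), with pseudocounts of 1 (0.0606) and 64 (0.0547), when the 4 raised arrays were dropped (0.0641), with only the compared groups fitted (0.0656) and with its probe sets averaged (0.183).

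**Figure D2:**
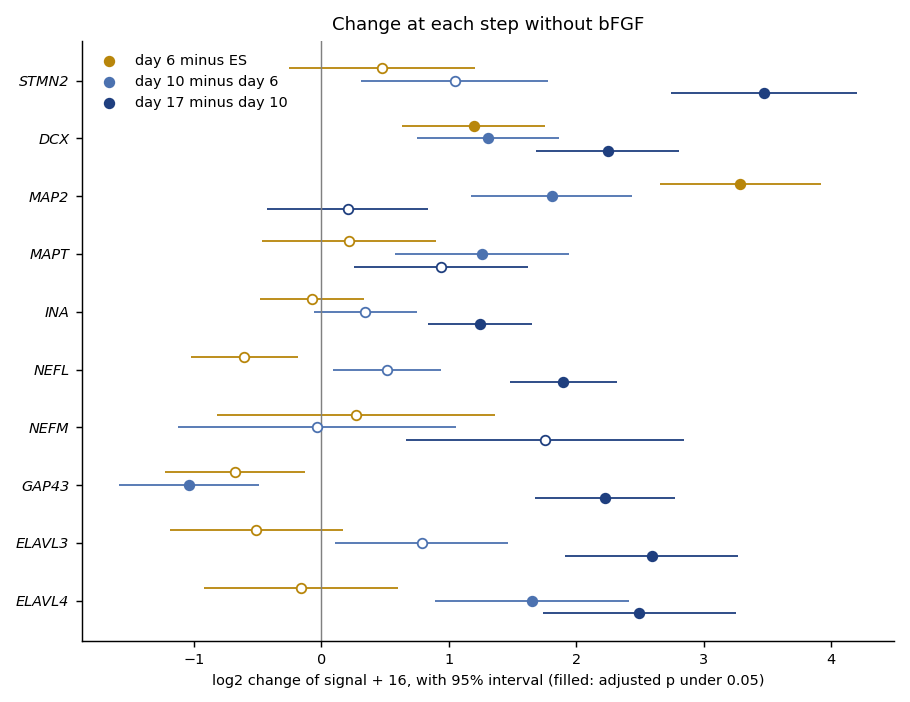
Change of each member at the 3 steps without bFGF, as the difference of log2(signal + 16) with its 95% interval. Filled points passed adjusted p under 0.05; on these probe sets the first step is largest for MAP2 (3.29), the second for MAPT (1.26) and the last for the other 8, up to 3.47 for STMN2.

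Of the intermediate filament genes, INA and NEFL rose from day 10 to day 17, and NEFM was higher in all day 17 pools without passing the test. INA (alpha-internexin) read 147, 198 and 176 on the ES pools, 175, 157 and 159 at day 6 and 189, 259 and 194 at day 10. The ES and day 6 pools overlapped, and so did the ES and day 10 pools. All day 10 pools lay above all day 6 pools (0.35 ± 0.19, adjusted p = 0.372), and no step up to day 10 was called. At day 17 INA read 577, 539 and 461, all above every array of the earlier groups (1.24 ± 0.19, adjusted p = 0.00193).

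NEFL, the light neurofilament subunit, was lower at day 6 (163, 161 and 184) than on the ES pools (241, 252 and 308), with no overlap. That change was -0.61 ± 0.20 and was not called (adjusted p = 0.127). It was called when pool number entered as a random block (adjusted p = 0.0450) and not as a fixed block (0.0524). NEFL read 296, 209 and 247 at day 10, all above day 6 without a call (0.51 ± 0.20, adjusted p = 0.162). At day 17 it read 1121, 943 and 858, of which all 3 exceeded day 10 (1.90 ± 0.20, adjusted p = 6.75e-05).

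NEFM, the medium subunit, varied most between pools. Pool 3 was the lowest of its 3 pools in all 6 groups, with 65.6 on the ES array, 126 at day 6, 56.2 at day 10 and 338 at day 17, where pools 1 and 2 read 685 and 460. The day 17 pools lay above all day 10 pools, and the change was 1.75 ± 0.52 (adjusted p = 0.119). With the pool number as a fixed block the same change had a standard error of 0.34 and was called (adjusted p = 0.00928), and it was called as well without day 17 bFGF pool 3 (adjusted p = 0.0441), an array outside the comparison that enters the shared variance. From ES cells to day 17 NEFM rose by 1.99 ± 0.52 (adjusted p = 0.0104), a call lost without ES pool 3 (adjusted p = 0.0588) or day 17 pool 1 (0.0521).

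GAP43 was the member with a called fall. It read 598, 352 and 425 on the ES pools, 334, 212 and 289 at day 6 and 152, 122 and 105 at day 10, each group below the one before it without overlap. The change to day 6 was -0.68 ± 0.26 and was not called (adjusted p = 0.224). It was called with pool number as a fixed block (adjusted p = 0.0391) and not as a random block (0.0527). The change from day 6 to day 10 was called at -1.04 ± 0.26 (adjusted p = 0.0218). At day 17 GAP43 read 876, 511 and 590, above every day 10 and day 6 array (2.22 ± 0.26, adjusted p = 0.000207) and overlapping with the ES arrays (0.50 ± 0.26, adjusted p = 0.210).

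The fall of GAP43 from day 6 to day 10 was not called without day 6 pool 1 (adjusted p = 0.107) or pool 3 (0.0813), without day 10 pool 2 (0.0652) or pool 3 (0.0882), when the 4 raised arrays were dropped (0.0548), with only the compared groups fitted (0.0777), or when its 3 probe sets were averaged (-0.42, adjusted p = 0.242). With the averaged probe sets the change from ES cells to day 17 was called (0.55, adjusted p = 0.0466). The rise to day 17 kept its call without any 1 array.

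Both ELAV genes rose from low signals. ELAVL3 read 15.2, 10.5 and 26.9 on the ES pools, 21.2, 2.41 and 1.92 at day 6, 34.2, 8.24 and 35.8 at day 10 and 227, 196 and 252 at day 17. The ES, day 6 and day 10 arrays overlapped, and the lowest day 17 array was far above all of them. The last step was 2.59 ± 0.32 (adjusted p = 0.000286), and the step to day 10 (0.79 ± 0.32, adjusted p = 0.190) was called without day 10 pool 2 (1.14, adjusted p = 0.0419) and without all 4 arrays with raised low signals (adjusted p = 0.0498).

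ELAVL4 had already passed the test at day 10. It read 11.6, 18 and 26.7 on the ES pools and 9.37, 21.7 and 14.1 at day 6, which overlapped. At day 10 it read 99.2, 125 and 38.9, above all earlier arrays (1.65 ± 0.36, adjusted p = 0.00890, 0.0507 without day 10 pool 2 and 0.0563 with only the compared groups fitted). At day 17 it read 420, 882 and 392, of which pool 2 was the highest (2.50 ± 0.36, adjusted p = 0.00109).

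For the step from day 10 to day 17, 9 of the 10 members were higher in all day 17 pools than in all day 10 pools, as were 7.29% of all genes. When only the arrays of the 2 compared groups were fitted, 4 members were called at this step (STMN2, NEFL, GAP43 and ELAVL3) and 34 of all genes. With the pool number as a fixed block 8 members and 754 genes were called, against 393 genes without it.

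The next comparison asked whether bFGF changed these levels. At day 10, limma called 0 members, against 0.0860% of all genes (17 genes), and 0 members had an unadjusted p under 0.05, against 613 genes. At day 17 it called 0 members as well, against 0.339% of all genes (67 genes), and 4 members had an unadjusted p under 0.05, against 980 genes. At day 10, 2 members were lower in all treated than in all untreated pools (2.97% of all genes). At day 17, 4 members were lower in this way (5.07% of all genes) and 1 was higher (3.96%). With the pool number as a fixed block 34 genes were called at day 10 and 120 at day 17, and 0 members at either day.

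STMN2, DCX, INA and ELAVL3 were lower in all 3 bFGF-treated day 17 pools than in all 3 untreated ones. STMN2 read 1445, 1044 and 1314 with bFGF (mean 1268 ± 205, SD, n = 3), against 2225 ± 241 without, a difference of -0.81 ± 0.35 (adjusted p = 0.923). DCX read 1143, 1307 and 1425, against 2246 ± 783 without (-0.74 ± 0.26, adjusted p = 0.649). The highest untreated DCX array was pool 2, at 3132, and without it the difference was -0.48.

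ELAVL3 read 121, 88.2 and 124 with bFGF, against 225 ± 28 without (-0.93 ± 0.32, adjusted p = 0.596). It passed with a pseudocount of 64 (-0.73, adjusted p = 0.0426). INA read 367, 417 and 404, against 526 ± 59.0 (-0.39 ± 0.19, adjusted p = 1.00). ELAVL4 leaned the same way with overlapping arrays on the probe set used, at 268, 405 and 320 against 565 ± 275 (-0.66 ± 0.36, adjusted p = 1.00), a difference of -0.30 without untreated pool 2. A second ELAVL4 probe set did not overlap, at 218 to 310 with bFGF against 432 to 469 without. The remaining ELAVL4 probe sets had low signals that overlapped.

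The neurofilament genes lay on the other side at day 17. NEFL read 1977, 1620 and 1301 with bFGF, all above the untreated 1121, 943 and 858, a difference of 0.72 ± 0.20 (adjusted p = 0.289). NEFM read 1966, 1179 and 396 with bFGF against 685, 460 and 338 without, so that the groups overlapped while the treated array was the higher one of each pool number (1.01 ± 0.52, adjusted p = 1.00). That difference was 0.51 to 1.65 when each array was left out in turn. The 95% intervals were 0.30 to 1.15 for NEFL and -0.08 to 2.11 for NEFM, where that of INA, the remaining filament gene, was -0.80 to 0.02.

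On the probe sets used, MAP2, MAPT and GAP43 overlapped between treated and untreated pools on both days. Their differences at day 17 were -0.27 ± 0.30 for MAP2, -0.23 ± 0.32 for MAPT and 0.15 ± 0.26 for GAP43. The intervals reach from -0.91 to 0.36, -0.91 to 0.46 and -0.40 to 0.69 in the same order. A different MAPT probe set separated at day 17, at 26.2 to 58.2 with bFGF against 71.8 to 101 without. Another, with very low signals, separated the other way at day 10, at 17.6 to 22.7 with bFGF against 1.68 to 13.7 without.

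At day 10 DCX read 371, 337 and 222 with bFGF against 558, 402 and 388, all lower (-0.52 ± 0.26). NEFL read 200, 165 and 188 against 296, 209 and 247, all lower as well (-0.40 ± 0.20). ELAVL4 read 27.5, 56.7 and 43.1 against 99.2, 125 and 38.9 (-0.75 ± 0.36), where pool 3 without bFGF lay inside the treated range. The adjusted p was 1.00 for each of the 3.

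NEFL was the member whose pools separated in opposite directions, lower in all treated pools at day 10 and higher in all at day 17. The difference between its effects was 1.13 ± 0.28 (unadjusted p = 0.00102, adjusted p = 0.739). No gene of the 19775 passed this test in limma (0%), and 1 member and 631 genes had an unadjusted p under 0.05.

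**Figure D3:**
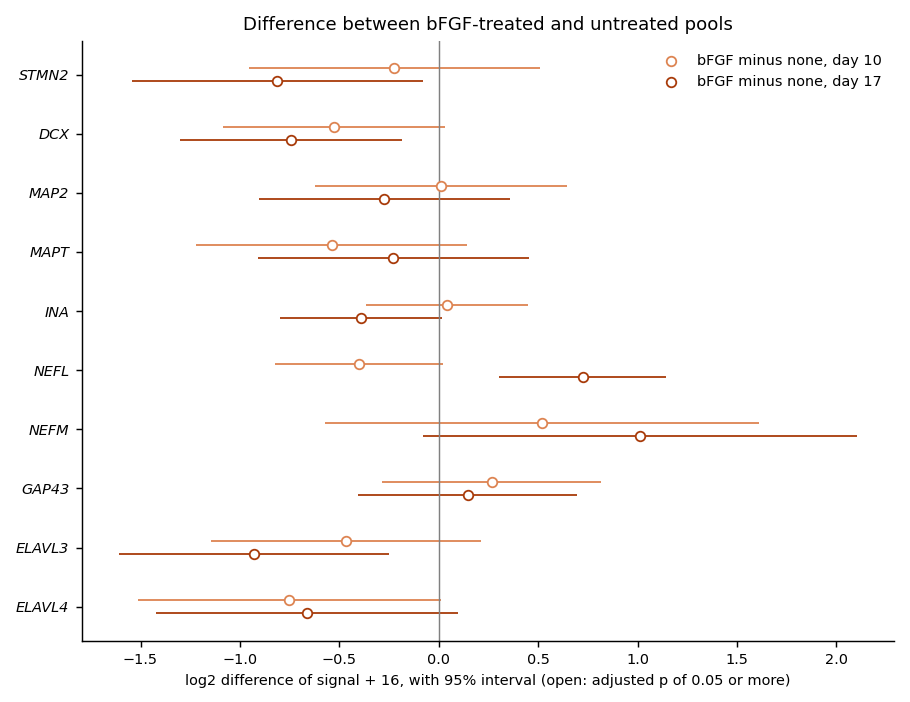
Difference between bFGF-treated and untreated pools for each member at day 10 and day 17, as the difference of log2(signal + 16) with its 95% interval. All points are open because none passed adjusted p under 0.05; at day 17 ELAVL3 (-0.93), STMN2 (-0.81) and DCX (-0.74) lie below 0 and NEFL (0.72) and NEFM (1.01) above it.

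Under bFGF the step from day 10 to day 17 was called upward for 7 members, STMN2, DCX, NEFL, NEFM, GAP43, ELAVL3 and ELAVL4, where 0.662% of all genes rose. NEFL made the largest step, from 185 ± 18 to 1633 ± 338 (3.02 ± 0.20, adjusted p = 1.19e-06), against 1.90 without bFGF. STMN2 rose by 2.89 ± 0.35 (adjusted p = 0.000551), ELAVL4 by 2.58 ± 0.36 (adjusted p = 0.00152), GAP43 by 2.10 ± 0.26 (adjusted p = 0.000642), DCX by 2.03 ± 0.26 (adjusted p = 0.000981) and ELAVL3 by 2.13 ± 0.32 (adjusted p = 0.00257, but 0.0703 with a pseudocount of 1 and 0.0568 with its probe sets averaged). MAP2 again had no further step (-0.08 ± 0.30, adjusted p = 1.00).

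NEFM rose by 2.25 ± 0.52 under bFGF (adjusted p = 0.0482), a call that was lost for 14 of the 18 arrays when each was left out in turn, with adjusted p of 0.05 to 0.244 in those fits. MAPT (1.25 ± 0.32, adjusted p = 0.0933) and INA (0.81 ± 0.19, adjusted p = 0.0571) passed once the pool number was a fixed block (adjusted p = 0.0168 and 0.0202). With that block 9 members and 446 genes were called, against 208 genes without it. With only the compared groups fitted, 2 members were called (STMN2 and NEFL) and 6 genes.

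The other 18 probe sets of the members mostly moved in the same direction at the last step. From day 10 to day 17, 15 of the 18 were higher and 6 were called, all upward, in a fit over all 54675 probe sets. Among the 19775 genes 1.45% were called upward at this step, and the shares over all probe sets are not given here. The second probe set of STMN2 gave 3.42 (adjusted p = 2.79e-05), that of DCX 2.00 (adjusted p = 0.00509), and those of NEFL 1.88 and 1.36. A second ELAVL4 probe set gave 2.37 (adjusted p = 0.00269) and a second one for ELAVL3 gave 1.74 (adjusted p = 0.0215). From ES cells to untreated day 17, 17 of the 18 were higher and 10 were called, all upward, where 11.7% of all genes rose. Over that course the second MAP2 probe set gave 2.89, against 5.30 for the one used.

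The second MAP2 probe set was also called at both early steps and not at the last, but its larger step came later, with 1.28 to day 6 (adjusted p = 0.00817), 1.72 to day 10 (adjusted p = 0.000440) and -0.11 to day 17 (adjusted p = 0.993). Of the other MAPT probe sets, the one with the highest signal on any array (101) gave 0.57 to day 10 and 1.04 to day 17, neither called. The MAPT probe set ending in _x_at, with higher means in most groups, gave 0.57 and 0.65, the latter not called. For GAP43 the other probe sets did not repeat the fall between day 6 and day 10: they gave -0.12 and -0.09, against -1.04 for the probe set used. At day 17 they gave 1.39 (adjusted p = 0.0518) and 0.93 (adjusted p = 0.297). The second NEFM probe set never exceeded a signal of 5.14 and 1 of the ELAVL3 probe sets never exceeded 39.0.

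For NEFL the other 2 probe sets were higher with bFGF at day 17 by 0.67 and 0.37, but at day 10 they differed by 0.13 and -0.19. Their differences between the days were 0.54 and 0.56 (adjusted p = 1.00 for both), against 1.13 for the probe set used. For ELAVL3 the second probe set was lower with bFGF at day 17 by a similar amount, at -0.95. Its signals were low and overlapped, at 3.08 to 34.2 with bFGF and 23.7 to 100 without. The third ELAVL3 probe set had means of 12.5 with bFGF and 13.8 without.

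**Figure D4:**
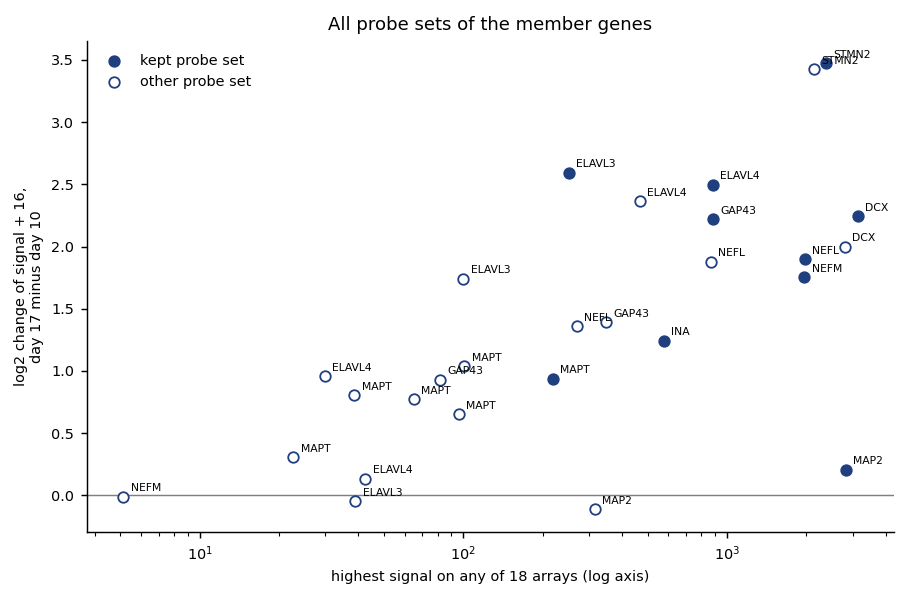
Change from day 10 to day 17 without bFGF for all 28 probe sets of the members, as the difference of log2(signal + 16), against the highest signal that the probe set reached on any array (log axis). Filled points are the probe sets used; both STMN2 probe sets lie near 3.4 and both MAP2 probe sets near 0, and the NEFM probe set that reached only 5.14 did not move.

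Close relatives of the members did not all share their course. STMN1, the stathmin of dividing cells, had means of 1086 to 1834 in the 6 groups and was called in 0 of the 8 comparisons. STMN4 rose from day 6 to day 10 (1.43 ± 0.23, adjusted p = 0.000789) and again to day 17 (1.55 ± 0.23, adjusted p = 0.00137), and its step to day 6 was called with the pool number as a fixed block (0.72, adjusted p = 0.0451). STMN3 went from 356 ± 59.7 on the ES arrays down to 154 ± 25.5 at day 10, with neither step called, and then up to 558 ± 121 at day 17 (1.74 ± 0.26, adjusted p = 0.00128).

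Of the ELAV family, ELAVL1, which is made in most cell types, kept means of 2714 to 3359 and was called in 0 of the 8 comparisons. ELAVL2 (HuB) fell from ES cells to day 6 (-0.98 ± 0.22, adjusted p = 0.0189) and rose by day 10 (1.11 ± 0.22, adjusted p = 0.00521), to 513 ± 73.3 against 464 ± 36.3 on the ES arrays. DCLK1, the kinase related to DCX, was called in 0 of the 8 comparisons, and in 2 with the pool number as a fixed block: lower at day 6 than in ES cells (-0.83, adjusted p = 0.0224) and higher at day 17 than at day 10 (0.85, adjusted p = 0.0297). NEFH, the heavy neurofilament subunit, fell from 106 ± 17.8 on the ES arrays to 39.9 ± 5.70 at day 6 (-1.11 ± 0.25, adjusted p = 0.0143) and was still at 50.4 ± 7 at day 17, below its ES level (-0.87 ± 0.25, adjusted p = 0.0178), while NEFL and NEFM were above theirs.

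**Figure D5:**
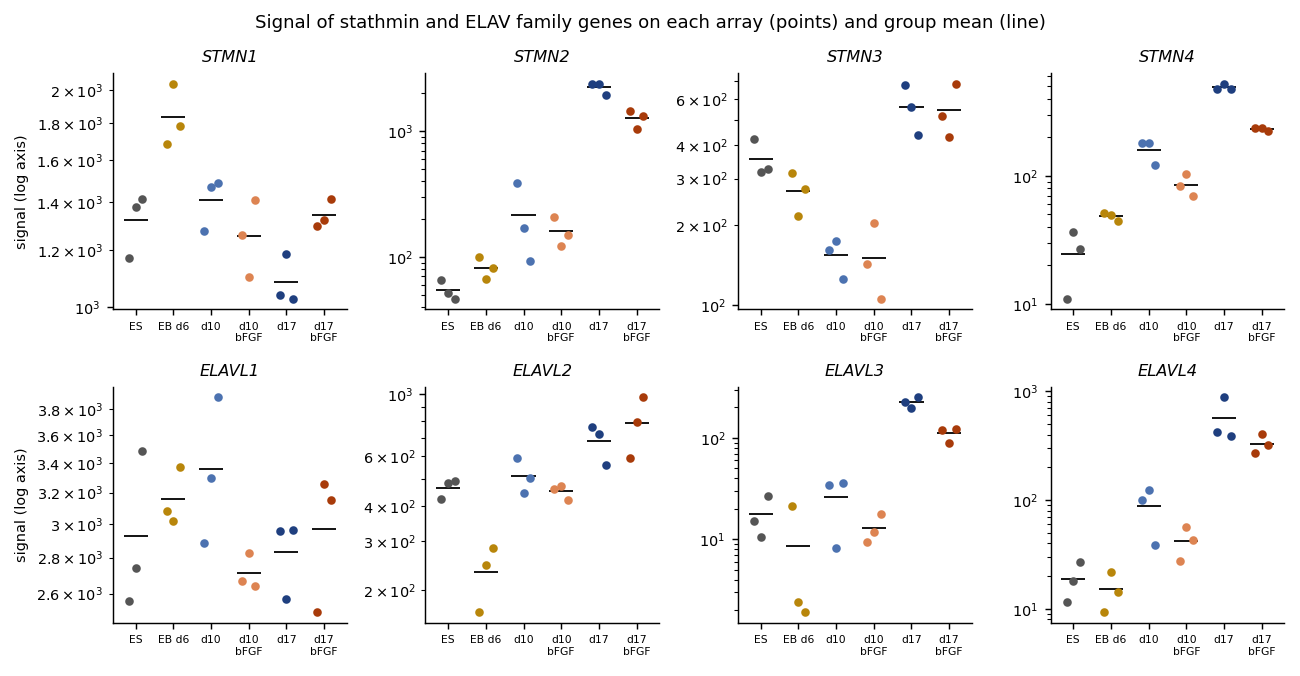
Signal of the stathmin genes STMN1 to STMN4 and the ELAV genes ELAVL1 to ELAVL4 (log axis, a separate axis for each gene) on the 18 arrays, with the group mean as a line. STMN2 and STMN4 climb to day 17, STMN3 dips to 154 at day 10, and STMN1 and ELAVL1 stay within 1086 to 1834 and 2714 to 3359.

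A wider list of 32 measured neuronal microtubule and growth cone genes had 5 called upward from day 10 to day 17 and 0 downward, with a median change of 0.64; with the pool number as a fixed block 10 were called. The 5 were STMN3, STMN4, DCLK2 (1.5), MAP6 (1.49), which stabilises microtubules, and MAP1B (1.11), an early axonal microtubule protein. TUBB3, the beta-tubulin widely used to stain neurons, was read from an _x_at probe set, whose probes can also bind other transcripts, and was at 4436 ± 1155 on the ES arrays, 4189.5 ± 1769.5 at day 10 and 6598 ± 2311 at day 17. Pool 2 was the lowest pool in all 6 groups, and day 17 was higher than day 10 within each pool number. TUBB3 was called in 0 of the 8 comparisons without a block. With the pool number as a fixed block its change from day 10 to day 17 was 0.69 ± 0.19 (adjusted p = 0.0589) and that from ES cells to day 17 was called (0.54, adjusted p = 0.0422), though not with a random block (0.142). Of 23 other neuronal RNA-binding and splicing genes only CELF3 was called at this step (1.19, adjusted p = 0.0127), and of 11 other intermediate filament genes 0 were, VIM, NES and NEFH among those tested (1 at an unadjusted p under 0.05, and VIM called with the fixed block).

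With bFGF limma called 0 genes of these 3 lists at either day; at day 17 an unadjusted p under 0.05 was reached by 3 of the microtubule, 3 of the RNA-binding and 0 of the filament genes. STMN4 came closest, at 232 ± 8.14 with bFGF against 495 ± 24.5 without at day 17 (-1.04 ± 0.23, adjusted p = 0.0837), and it was called with the pool number as a fixed block (adjusted p = 0.0324) or a random block (0.0197). Its treated and untreated pools did not overlap, as with STMN2 and DCX.

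REST, the repressor that keeps neuronal genes off in other cells, went from 553 ± 212 on the ES arrays to 368 ± 105 at day 17 (-0.53 ± 0.35, adjusted p = 0.361). It was called in 0 of the 8 comparisons. Of the 12 genes listed for REST and its corepressors 0 were called from day 10 to day 17, where 1.99% of all genes were. From ES cells to day 17, 1 of the 12 was called, upward, where 20.2% of all genes were called in either direction. With the pool number as a fixed block 3 were called there (RCOR3, HDAC1 and CTDSPL), along with 5812 of all genes.

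Over the 18 arrays the members' signals moved together to different degrees. Among the 45 pairs of members Pearson's r of log2(signal + 16) was -0.16 to 0.96, with a median of 0.78. The highest pair was MAPT with ELAVL4 and the lowest MAP2 with GAP43. These values describe arrays that share 6 groups and are not tests.

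The genes most like single members by this measure, outside the 10, were PANTR1 (0.97), a noncoding RNA beside POU3F3, then POU3F3, the netrin receptor DCC, CDO1 and NR2E1 for STMN2. For DCX they were STMN4 (0.97), ACKR3, SRGAP3, PCDH19 and MAP6, of which STMN4 ranked highest by Spearman's rho as well (0.99). Ranks by rho could be far lower, among 19728 genes 336 for NR2E1 with STMN2, 719 for SOX11 and 556.5 for LMO3 with MAP2. For MAP2 they were DACH1, ASXL1, SOX5, SOX11 and LMO3, with r of 0.98. For ELAVL4 they were MIR99AHG (0.97), CDO1, ZNF536, RELN and LONRF2.

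Markers of other cell types also moved between these groups, and their part in the members' changes was not tested. The summed signal of 11 mesenchyme and muscle genes was 8057 to 8934 at day 10 and 14031 to 19096 at day 17, and 1 of the 11 was called, COL1A1 (1.34, adjusted p = 0.0149), against 2 with the pool number as a fixed block and 4 with a random one. That of 14 neural progenitor genes was 25216 to 40007 at day 10 and 27984 to 37210 at day 17, with SOX1 and SOX3 called upward. That of 9 pluripotency genes was 14861 to 17844 at day 10 and 6848 to 9257 at day 17, with 4 called downward.

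The summed signal of 8 glial genes was 261 to 388 at day 10 and 469 to 552 at day 17, with OLIG1 called (1.77), and 2 genes with the fixed block. The defining astrocyte marker GFAP had means of 2.65 to 13.5 in the 6 groups and S100B of 3.55 to 12.9. That of 11 neural crest and peripheral neuron genes was 772 to 1292 at day 10 and 755 to 788 at day 17, with 0 called by limma (3 at an unadjusted p under 0.05, and 1 called with the fixed block). PRPH, the filament protein of peripheral neurons, had means of 27.8 to 42.7 and was called in 0 of the 8 comparisons.

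Between bFGF-treated and untreated day 17 pools the summed signals overlapped for the mesenchyme list (14200 to 18620 with bFGF) and for the progenitor list (26994 to 34174). Of the mesenchyme list limma called PRRX1, a transcription factor, upward with bFGF (2.18, adjusted p = 0.0129), and of the pluripotency list CDH1, an epithelial cadherin, downward (-1.57, adjusted p = 0.0399). The summed signals did not overlap for 24 synaptic and neurosecretory genes, at 2970 to 3167 with bFGF against 4125 to 4321 without, nor for 26 proneural and commitment factors, at 2143 to 2758 against 3143 to 4058. Of these genes limma called 0 in either list, with 4 and 8 at an unadjusted p under 0.05. With the fixed block 0 and 1 were called.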

How the data were processed

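Total RNA pools of H9 cells and their derivatives were measured on 18 1-colour Affymetrix arrays, with groups and pool numbers read from titles and descriptions. The authors deposited 1 linear intensity per probe set and array; how these were summarised and background-corrected is not given in the sources used here, nor are detection calls. Equal trimmed means show that the arrays had been scaled to 1 level, so no further normalization was applied. The platform annotation named the probe sets (41097 name 1 gene, 1801 several, 11777 are unnamed here).

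Groups were compared in R 4.3.3 with limma 3.58.1 (lmFit and eBayes, a mean for each group, all 18 arrays, 12 residual degrees of freedom) on log2(signal + 16), with Benjamini-Hochberg adjustment over 19775 genes in each of 8 comparisons, and checked on simulated data. Other probe sets were read from the same fit over all 54675. The members, gene lists, rule for named genes and alternatives were chosen with earlier results of these data known. Named were all members, their closest relatives, up to 4 called genes of a list with the largest change, and the 5 genes most correlated with a member; all 5 called microtubule genes are named, of which STMN3, STMN4 and MAP1B are relatives.

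Equal pool numbers were checked for pairing by correlating, across genes, the arrays' deviations from their group means. These correlations were 0.156 to 0.668 for the compared groups, except 0.0749 for pool 1 of day 10 against day 6. Equal numbers were therefore taken as pairs in every comparison but that one, whose pools 2 and 3 gave 0.337 and 0.187. Pool 2 gave the highest correlation in every comparison, and its arrays also shared a higher ACTB ratio. These correlations cannot tell pairs of cultures from traits shared by arrays with the same number. For ES cells and day 6 the labelled passages of pool 2 differ, so that pairing rests on the correlations. The main fit did not use the pairs, and the pool number entered only where a block is named. The title was followed where labels disagree: the description of day 10 bFGF pool 2 calls it pool 1. ES pool 1 has no number in its title.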

Additional observations from a re-analysis of the deposited data

Results flagged for a closer look

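NEFL, the light neurofilament subunit, stood out because the sign of its bFGF difference depended on the day. It was lower in all 3 treated pools at day 10 (-0.40) and higher in all 3 at day 17 (0.72), and the difference between these effects was 1.13 ± 0.28 on the log2 scale (limma, unadjusted p = 0.00102, adjusted p = 0.739 over 19775 genes). The other 2 NEFL probe sets gave 0.54 and 0.56, with 1 of them higher with bFGF on both days (0.13 and 0.67). The bFGF dose is labelled in different units at the 2 days.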

How the results depend on the processing

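Of the 30 called changes of members, 24 kept their call when each array was left out in turn and 18 under every other setting tried, and 0 called changes reversed. Counts past the test moved by over 1.5 times as follows, in limma. With a pseudocount of 1, all genes called were 226 from day 10 to day 17, 2 and 20 for bFGF at days 10 and 17, and 113 from day 10 to day 17 under bFGF; with 64, 1 member was called for bFGF at day 17 and 1 gene for the difference of the bFGF effects. With only the compared groups fitted, members and genes called were 2 and 647 from day 6 to day 10, 4 and 34 from day 10 to day 17, and 2 and 6 under bFGF, and 0 genes for bFGF at either day (0 and 0 members). Averaging probe sets left 3 members from day 6 to day 10 and 10 genes for bFGF at day 10.

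With the pool number as a fixed replicate block, genes called were 1454 (ES to day 6), 2512 (to day 10), 754 (to day 17), 34 and 120 (bFGF), 1 (difference) and 446 (under bFGF); as a random block they were 1363, 2300, 754, 38, 122, 1 and 447. From day 6 to day 10, where the numbers were not taken as pairs, STMN2 passed under the fixed block (adjusted p = 0.0213) and the random block (0.0223). The block changed no other member call than those given with the results. Without the 4 arrays with raised low signals, genes called were 229 (day 10 to day 17), 4 (bFGF at day 10) and 106 (under bFGF); with these arrays as a term they were 1171 (ES to day 6), 645, 37, 102 (bFGF at day 17), 1 (difference) and 362. Without pool 2 of every group, 1 member was called by day 6 (MAP2), and genes called were 813 (day 6 to day 10), 182 (day 10 to day 17), 4 and 22 (bFGF) and 92 (under bFGF). The cause of these shifts was not tested.

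Leaving out each array in turn, members and genes called ranged over 1 to 2 and 462 to 776 (ES to day 6), 3 to 5 and 842 to 1326 (day 6 to day 10), 7 to 8 and 206 to 409 (day 10 to day 17), 8 to 9 and 3130 to 4131 (ES to day 17), 0 to 0 and 3 to 19 (bFGF at day 10), 0 to 0 and 22 to 73 (bFGF at day 17), 0 to 0 and 0 to 1 (difference), and 6 to 7 and 113 to 219 (under bFGF). Without detection calls, low signals such as those of MAPT and ELAVL3 before day 17 have no stated bound.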

Other observations

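Among 24 measured synaptic and neurosecretory genes, 5 rose from untreated day 10 to day 17, and 10 were called with the pool number as a fixed block. The largest changes were in NSG2 (2.44, adjusted p = 1.57e-05), a neuronal endosomal protein, SLC17A6 (2.16, adjusted p = 0.00184), the vesicular glutamate transporter VGLUT2, and the axonal adhesion molecules L1CAM (2.06, adjusted p = 0.00404) and CNTN2 (1.99, adjusted p = 0.0131), by limma over 19775 genes. The median change of the 24 was 0.84, against 2.06 for the 10 cytoskeletal and RNA-binding genes and -0.01 for all genes.

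Between day 6 and day 10 a few genes of the wider lists moved against most members. DPYSL3, a collapsin response mediator protein of growth cones, was 1790.3 at day 10 against 4831 at day 6 (-1.44, adjusted p = 0.00115), BASP1, a membrane protein of growth cones like GAP43, was 2042 against 4206 (-1.09, adjusted p = 0.0403), and SCG3, a secretory granule protein, was 32.5 against 196 (-2.18, adjusted p = 0.00279). Of 18 cell cycle genes, limma called 0 from day 10 to day 17, with 2 at an unadjusted p under 0.05 and 2 called with the fixed block (CDKN1A and CDKN1C).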
